A study of Mus musculus with 6 samples.

Results

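The *Yap1* and *Birc2*/*Birc3* locus was described as 5 genes of mouse chromosome 9, *Yap1*, *Birc2*, *Birc3*, *Tmem123* and *Dcun1d5*, out of 55359 rows of the count table. The members were chosen by gene identity and position, as genes between bases 7184520 and 8004597 of chromosome 9, part of the mouse counterpart of the human 11q22 region that is amplified in squamous tumors. The values behind the choice are positions only, and each gene was found once in the table by its Ensembl identifier.

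Messenger RNA of 2 cultured mouse lung squamous cell carcinoma (LUSC) lines, UN-SCC679 and UN-SCC680, was sequenced in 3 libraries per line. Both lines were derived from tumors induced in A/J mice by skin painting with the carcinogen N-nitroso-tris-chloroethylurea (NTCU), were transplanted into mice lacking Rag2 and IL2Rg and then into A/J mice, and came from different animals, so that each line represents 1 tumor. Neither labels nor methods give a treatment or time point for the sequenced cultures, nor whether the libraries of a line came from separate cultures, so p-values measure the spread between these libraries, which may be technical. Since there is 1 line per tumor, a difference between lines cannot be told apart from a difference between any 2 tumors.

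YAP1 is the transcriptional coactivator at the end of the Hippo kinase cascade: when the kinases are inactive it enters the nucleus, binds TEAD factors and switches on growth genes. BIRC2 and BIRC3, also called cIAP1 and cIAP2, are paired ubiquitin ligases of the inhibitor of apoptosis family that act on signaling below tumor necrosis factor receptors, and *Birc3* is itself a classic target gene of NF-kB. TMEM123 (porimin) is a mucin-like membrane protein linked to oncotic cell death, and DCUN1D5 helps to attach NEDD8 to cullins, the scaffolds of a large family of ubiquitin ligases.

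Libraries held 3568293 to 4381885 counts. The gene positions of most of the table are not those of GRCm38, and counts at such rows cannot be read as expression of the named gene, so positions were checked first. Of 91 rows that begin between 3 and 10 Mb of chromosome 9, 39 had a RefSeq gene of GRCm38.p6 with the same symbol on that chromosome, all 39 overlapped it, 35 began or ended at most 100 bases from where it does and 27 at most 10 bases. The last group holds *Yap1*, *Birc2* and *Tmem123*. The models of *Birc3* and *Dcun1d5* differ in extent from those of RefSeq. Both ends of the *Dcun1d5* row lie more than 1000 bases from those of its RefSeq gene, so this member did not meet the position check. The 5′ ends of the *Birc3* and *Dcun1d5* rows lie 17 and 15 bases from a RefSeq start site. None of the 12 markers of squamous and basal epithelium that were listed, among them *Trp63*, *Krt5* and *Sox2*, lies at a checked position, so the cell type label could not be tested with these counts. Of the 7 fibroblast markers only *Col1a2*, a chain of type I collagen, does, and it fell from 28061 ± 1223.8 to 2267.5 ± 94.2 CPM (counts scaled to library totals, which were corrected by the trimmed mean of M values; SD, n = 3 each). *Esrp1*, an epithelial splicing factor, had 0, 1 and 2 counts in the UN-SCC679 libraries and 0 in every UN-SCC680 library. The part of cell type in the results below was not tested.

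The 5 genes lie in the order *Dcun1d5*, *Tmem123*, *Birc2*, *Birc3*, *Yap1* over 820 kb. In the positions of the table, *Dcun1d5* (ENSMUSG00000032002.11) spans chr9:7184520-7208205 and *Tmem123* (ENSMUSG00000050912.16) chr9:7764042-7794334, both on the + strand. *Birc2* (ENSMUSG00000057367.13, chr9:7818228-7837065), *Birc3* (ENSMUSG00000032000.18, chr9:7848700-7873187) and *Yap1* (ENSMUSG00000053110.14, chr9:7932000-8004597) follow on the - strand. The gap between *Birc2* and *Birc3* is 11.6 kb and that between *Birc3* and *Yap1* 58.8 kb, whereas *Dcun1d5* is set off from *Tmem123* by 556 kb that hold the matrix metalloproteinase genes. Counts were summed over exons, which form 12 separate blocks in *Yap1*, 8 in *Birc2*, 11 in *Birc3*, 7 in *Tmem123* and 9 in *Dcun1d5*.

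Within protein-coding transcripts, few stretches of these genes were shared with another gene. Of the 50-base words in GENCODE M1 protein-coding transcripts, those of *Yap1*, *Tmem123* and *Dcun1d5* occurred in transcripts of no other gene. The paralogs *Birc2* and *Birc3* shared 65 words, of 3081 in *Birc2* and 4545 in *Birc3*, and *Birc3* shared 112 in all when other genes were included. The reads were 50 bases long in pairs, so a small part of the reads of these paralogs cannot be told apart. The search covered 4384 words in *Yap1* and 1152 in *Dcun1d5*, fewer than the 9257 and 3077 exon bases counted. Pseudogenes and other noncoding sequence were not searched. An unnamed + strand row overlaps 116 of the 9257 exon bases of *Yap1* and held at most 1 count in any library.

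The promoters of *Yap1*, *Birc2* and *Birc3* are shown because the last gene differed from its paralog and from *Yap1* in the size of its change. Each run is the 250 bases before the RefSeq start site nearest to the 5′ end of the row (RefSeq, GRCm38.p6), read 5′ to 3′ on the - strand of the gene, with matches to the searched motifs in capitals: chr9:8004597-8004846 for *Yap1*, chr9:7837058-7837307 for *Birc2* and chr9:7873171-7873420 for *Birc3*.
Yap1: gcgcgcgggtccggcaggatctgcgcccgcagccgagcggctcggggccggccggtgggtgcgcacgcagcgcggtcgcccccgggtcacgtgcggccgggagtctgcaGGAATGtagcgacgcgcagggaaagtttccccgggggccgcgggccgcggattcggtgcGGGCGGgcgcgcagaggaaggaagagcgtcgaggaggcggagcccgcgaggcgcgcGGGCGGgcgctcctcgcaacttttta
Birc2: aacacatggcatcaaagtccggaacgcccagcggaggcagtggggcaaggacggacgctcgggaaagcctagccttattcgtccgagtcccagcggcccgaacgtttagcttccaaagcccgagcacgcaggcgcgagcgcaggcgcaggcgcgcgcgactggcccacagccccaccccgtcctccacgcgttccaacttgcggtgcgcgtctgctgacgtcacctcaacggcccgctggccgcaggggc
Birc3: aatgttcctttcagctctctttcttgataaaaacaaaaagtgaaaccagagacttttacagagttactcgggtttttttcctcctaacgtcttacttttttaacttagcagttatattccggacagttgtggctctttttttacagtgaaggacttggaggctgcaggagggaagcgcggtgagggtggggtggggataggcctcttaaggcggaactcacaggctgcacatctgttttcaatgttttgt

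The promoter windows of the paralogs differ in composition. G and C made up 68.4% of the *Birc2* window and 76.4% of the *Yap1* window, against 43.6% of the *Birc3* window and a median of 52.4% over 32851 RefSeq windows of this length. The CG dinucleotide occurred 31 times in *Birc2*, 44 times in *Yap1* and 6 times in *Birc3*, where the median window had 6. The nearest window of *Tmem123* had 69.2% G and C and 15 CG, and that of *Dcun1d5* 54% and 13. Whether composition bears on the size of the change was not tested. Motifs were searched on both strands. The TEAD motif GGAATG was found once in *Yap1* and in no other of the 5 nearest windows, and 12.6% of all windows hold it. The GC box GGGCGG was found 2 times each in *Yap1* and *Tmem123*, and 32.7% of all windows hold it. A kappaB motif narrower than the usual consensus (GGG, any 2 bases, then TTTCC; 1.41% of all windows), the AP-1 motif TGANTCA (6.75%) and the CCAAT box (33.8%) were found in none of the 5, which says only that these letters are not in these windows. Windows before a second RefSeq start site held 2 GC boxes in *Birc2*, 259 bases from the 5′ end of its row, 3 in *Tmem123*, and a CCAAT box in *Dcun1d5*.

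All 5 genes passed the filter on low counts and were lower in UN-SCC680 than in UN-SCC679. *Yap1*, *Tmem123*, *Birc2* and *Dcun1d5* were at 56.1% to 57.8% of their UN-SCC679 level, and *Birc3* was at 34.9%. In edgeR's quasi-likelihood test over 8987 rows, with Benjamini-Hochberg adjustment over all of them and the study's threshold of 5e-05, each of the 5 passed. The background is high, since 30.4% of all rows passed, 15.2% in this direction, 6.43% passed with a log2 fold change under -1, as *Birc3* alone of the 5 did, and 31.2% of all rows had every UN-SCC680 library below every UN-SCC679 library. Most of the rows tested did not meet the position check. Of the 256 tested rows at unchanged positions on other chromosomes 60.2% passed, 48 lower in UN-SCC680 and 106 higher. In bulk RNA, fewer cells that express a gene and less of its RNA per cell cannot be told apart.

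*Yap1* had 6682, 7896 and 6463 counts in the UN-SCC679 libraries and 4260, 4557 and 4453 in the UN-SCC680 libraries, which are 1798, 1795.4 and 1807.4 CPM against 1013.7, 1054.6 and 1051.7 CPM. Every UN-SCC680 library was below every UN-SCC679 library, and libraries of a line lay close together. In log2 terms the change was -0.79 ± 0.03 (standard error), with adjusted p = 6.26e-26 from edgeR.

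*Birc2*, the more abundant of the IAP paralogs, had 414.12, 409.05 and 419.76 CPM in UN-SCC679 and 234.14, 230.51 and 240.2 CPM in UN-SCC680. Its log2 fold change, -0.82 ± 0.04 (standard error), had adjusted p = 4.04e-21 from edgeR, from 984 to 1799 counts per library. The lines did not overlap.

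*Birc3* had 126.74, 123.01 and 122.21 CPM in UN-SCC679 and 49.731, 42.121 and 38.025 CPM in UN-SCC680. It was the least abundant of the 5, with 437 to 541 counts per library in UN-SCC679 and 161 to 209 in UN-SCC680. The UN-SCC680 libraries were spread more widely in proportion to their mean than those of any other member, yet the highest of them was below each UN-SCC679 library. Its log2 fold change, -1.52 ± 0.08 (standard error), had adjusted p = 2.88e-21 from edgeR.

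*Tmem123* had 1255.6, 1244.7 and 1254.8 CPM in UN-SCC679 and 687.19, 729.71 and 755.07 CPM in UN-SCC680. Its log2 fold change, -0.79 ± 0.03 (standard error), had adjusted p = 4.44e-24 from edgeR. *Dcun1d5* had 674.33, 622.78 and 640.97 CPM in UN-SCC679 and 350.73, 359.88 and 375.76 CPM in UN-SCC680. Its log2 fold change, -0.83 ± 0.04 (standard error), had adjusted p = 1.6e-22 from edgeR. Neither gene had overlapping lines.

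**Figure D1:**
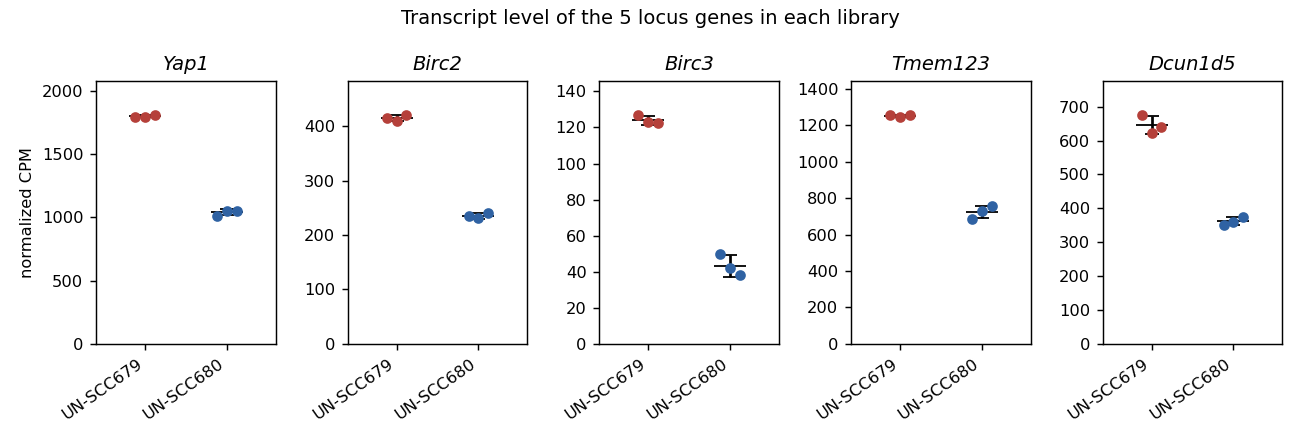
Normalized CPM of the 5 genes in each library (points), with the mean and SD of 3 libraries per line (bars), each panel on its own axis from 0. In every panel the UN-SCC680 points lie below the UN-SCC679 points, and the drop of *Birc3* from 124 to 43.3 CPM is the steepest in proportion.

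Among all 8987 rows, folds as low as these were not rare. A log2 fold change below that of *Yap1* was found in 12% of rows, below that of *Tmem123* in 12.1%, below that of *Birc2* in 11.4% and below that of *Dcun1d5* in 11.1%. For *Birc3* the share was 4.62%. The median over all rows was near 0. Most of these rows did not meet the position check, and the shares were not taken over checked rows alone. At the 256 tested rows at unchanged positions on other chromosomes the median was 0.19.

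**Figure D2:**
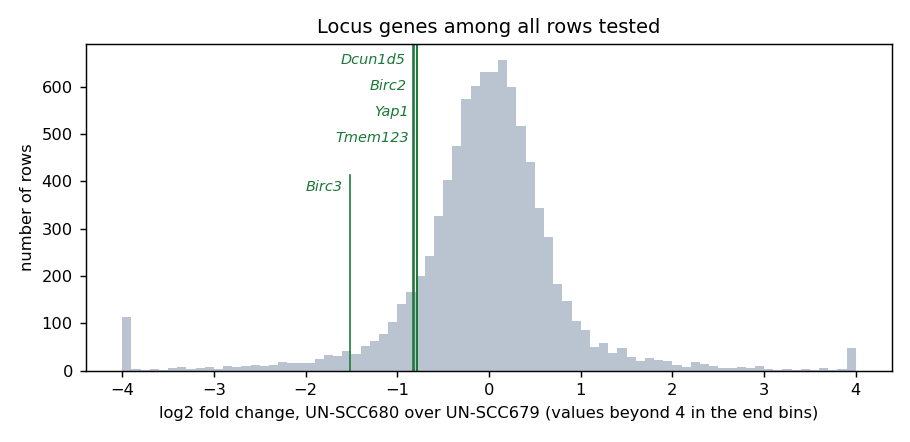
Histogram of log2 fold changes (UN-SCC680 over UN-SCC679) of the 8987 rows tested, in bins of equal width, with green lines at the 5 locus genes. The lines of *Dcun1d5*, *Birc2*, *Yap1* and *Tmem123* fall together between -0.83 and -0.79 on the left shoulder, and that of *Birc3* stands farther out at -1.52.

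Levels of the 5 genes relative to each other were compared per kilobase of exon length. In UN-SCC679, *Tmem123* was highest with 402.6 ± 1.96 CPM per kilobase, followed by *Dcun1d5* with 210.0 ± 8.50, *Yap1* with 194.5 ± 0.683, *Birc2* with 90.5 ± 1.17 and *Birc3* with 24.8 ± 0.483 (SD, n = 3 each). In UN-SCC680 the order was the same, with 232.9 ± 11, 117.7 ± 4.12, 112.3 ± 2.47, 51.3 ± 1.07 and 8.64 ± 1.19 CPM per kilobase. *Dcun1d5* and *Yap1* were the closest neighbors in this order. Their means differed by a factor of 1.08 in UN-SCC679 and 1.05 in UN-SCC680, where the lowest *Dcun1d5* library (114.0) and the highest *Yap1* library (113.9) nearly met. The level of *Birc2* was 3.65 times that of *Birc3* in UN-SCC679 and 5.94 times in UN-SCC680.

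Ratios of counts between genes within a library do not depend on scaling, and they separate the 5 genes into a group of 4 that fell in step and *Birc3*. For the 6 pairs without *Birc3*, the log2 ratio changed between the lines by at most 0.04, and the lines overlapped in each pair. *Yap1* over *Tmem123*, for example, was 0.52, 0.53 and 0.53 in UN-SCC679 and 0.56, 0.53 and 0.48 in UN-SCC680. For the 4 pairs with *Birc3* the change was 0.69 to 0.73, against *Birc3*, and the lines did not overlap. *Birc2* over *Birc3* was 1.71, 1.73 and 1.78 in UN-SCC679 and 2.23, 2.45 and 2.66 in UN-SCC680. In a two-sided exact permutation test each of the 4 pairs had p = 0.1, the smallest value that 3 libraries against 3 allow, and 0.25 after Benjamini-Hochberg adjustment over the 10 pairs. The other pairs had an exact p of 0.2 to 1.0. This test therefore cannot bring a ratio under 0.05 with 3 libraries a line, and a p that misses it does not show that the other ratios were equal.

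**Figure D3:**
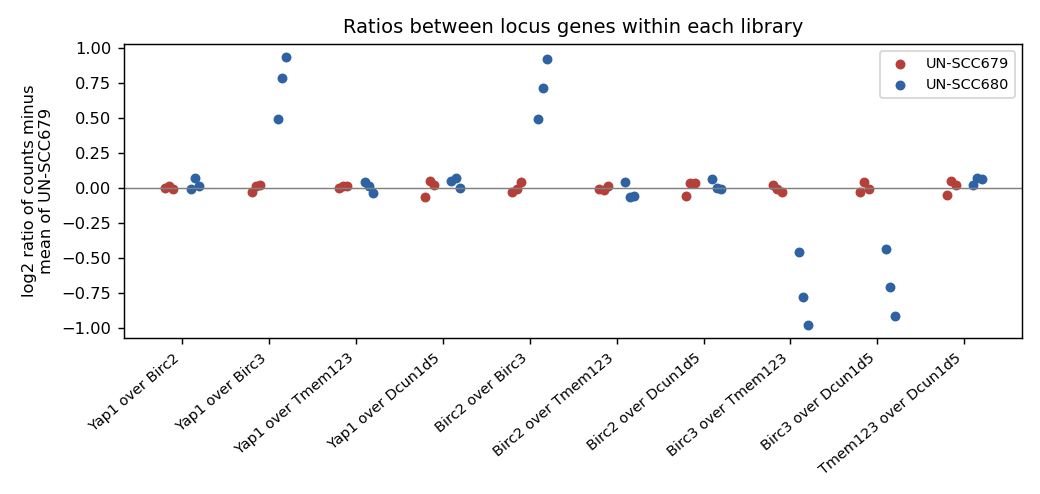
Log2 ratio of counts between 2 locus genes in each library, for the 10 pairs, set to 0 at the mean of UN-SCC679. In the 6 pairs without *Birc3* the points of both lines mix near 0, and in the 4 pairs with *Birc3* the UN-SCC680 points lie 0.69 to 0.73 away on average.

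The make-up of the locus restates these ratios from the same counts and is no separate result. The 5 genes together took 15180 to 18449 counts of a UN-SCC679 library and 9815 to 10443 of a UN-SCC680 library. *Yap1* made up 42.1% to 42.8% of that sum in UN-SCC679 and 42.7% to 43.6% in UN-SCC680, and the share of *Birc2* overlapped between the lines as well. The share of *Birc3* was 2.88% to 2.97% in UN-SCC679 and 1.55% to 2.13% in UN-SCC680, without overlap.

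Genes beside the locus were examined over the stretch from 3 to 10 Mb, where positions were checked but rows were kept whatever the offset of their ends. Of the 86 rows that are no locus gene, 17 had enough counts to be tested, 13 of them protein-coding. Of these 17 rows 13 differed between the lines (76.5%, against 30.4% of all rows), 10 lower in UN-SCC680 and 3 higher, with a median log2 fold change of -0.80. Of 256 tested rows at unchanged positions on other chromosomes 60.2% differed, 48 lower in UN-SCC680 and 106 higher, with a median of 0.19. Those rows all met the 10-base check, and not all of the 17 neighbors did. Of the 13 neighbors that differed, 8 met it with a matching symbol, all lower in UN-SCC680. On the rest of chromosome 9, where most rows are not at the positions of the genes they name, 22% of 501 rows differed, and the median was -0.08.

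Of the genes that fell, *Cwf19l2* stood at a log2 fold change of -0.82 and *Aasdhppt*, which attaches the phosphopantetheine arm to carrier proteins, at -0.80, close to *Yap1* at -0.79. *Arhgap42* stood at -0.61. *Kbtbd3*, *Alkbh8*, a tRNA-modifying enzyme, and *Msantd4* stood at -1.01, -1.07 and -1.13.

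The steepest decreases among those above 10 CPM were those of *Cfap300*, a factor for the assembly of ciliary dyneins, and the inflammatory caspase genes *Casp1* and *Casp12*. *Cfap300* lies 17.1 kb upstream of *Yap1* and had 1071, 1300 and 1015 counts in UN-SCC679 against 289, 335 and 299 in UN-SCC680. Its log2 fold change, -2.0 ± 0.06 (standard error), had adjusted p = 6.45e-31 from edgeR. *Casp1* fell from 860 ± 29.5 to 278 ± 2.80 CPM and *Casp12* from 568 ± 18.8 to 239 ± 7.78 CPM (SD, n = 3 each). *Casp4*, between them, did not pass the threshold, with a log2 fold change of -0.33 and adjusted p = 0.00622 from edgeR.

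The 3 rows that rose and passed the threshold were *Cep126*, *Dync2h1* and *Gm10709*. The pseudogenes *Olfr369-ps1* and *Gm5362* also rose but did not pass (log2 fold change 1.72 and 0.45, adjusted p = 0.000164 and 0.0337 from edgeR). *Olfr369-ps1*, the steepest rise of the stretch, had only 3 to 6 counts per library in UN-SCC679 and 13 to 21 in UN-SCC680. *Cep126*, which encodes a centrosomal protein and follows *Cfap300* after 33.6 kb, had 154, 183 and 147 counts in UN-SCC679 and 291, 314 and 307 in UN-SCC680. Its log2 fold change, 0.79 ± 0.08 (standard error), had adjusted p = 4.3e-11 from edgeR. The lines did not overlap, and the direction was opposite to that of *Yap1* and *Cfap300*. *Dync2h1*, the heavy chain of the motor that returns cargo along cilia, has its 5′ end 73 bases from that of *Dcun1d5* in the table, on the other strand, though the RefSeq models of both differ in extent. It rose from 219 ± 3.20 to 273 ± 6.40 CPM (SD, n = 3 each; log2 fold change 0.32, adjusted p = 9.21e-08 from edgeR), while *Dcun1d5* fell. The pseudogene *Gm10709*, before *Tmem123*, had a log2 fold change of 0.30, and its reads may belong to a parent gene elsewhere. In a separate fit on rows at unchanged positions and those of this stretch alone, log2 fold changes of shared rows moved by a median of -0.177, and *Dync2h1* (0.14) and *Gm10709* (0.13) did not pass, whereas *Cep126* (0.61) and the 5 locus genes did.

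**Figure D4:**
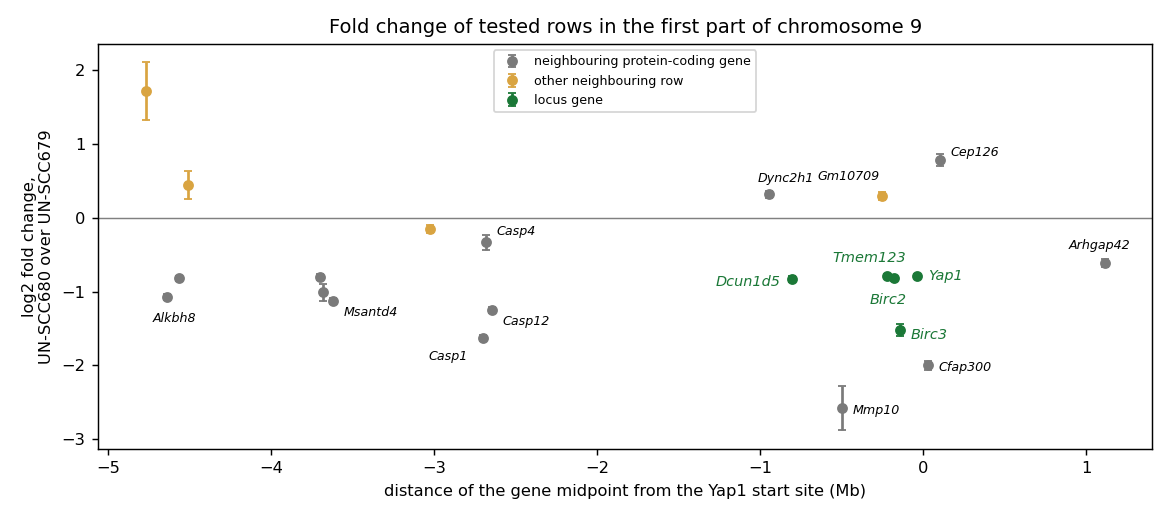
Log2 fold change (UN-SCC680 over UN-SCC679, bars are standard errors) of the tested rows between 3 and 10 Mb of chromosome 9, against the distance of the row's midpoint from the *Yap1* start site in Mb. The locus genes (green) and 11 of the 13 protein-coding neighbors (gray) lie below 0, *Dync2h1* and *Cep126* lie above it, and the 4 other rows, pseudogenes or unnamed, are in orange.

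The matrix metalloproteinase genes between *Dcun1d5* and *Tmem123* were close to silent. Of their 10 rows, 9 were not tested because no library had more than 8 counts. *Mmp10*, the exception, had 33, 42 and 36 counts in UN-SCC679 and 10, 7 and 3 in UN-SCC680 (log2 fold change -2.58 ± 0.30, standard error; adjusted p = 6.39e-10 from edgeR). It passed the filter on low counts through UN-SCC679, so the direction of its change was partly set by the filter. With at least 10 counts required in every library *Mmp10* was not tested, and 12 neighboring rows differed, 9 of them lower in UN-SCC680. *Trpc6*, a calcium channel gene, and *Pgr*, the progesterone receptor gene, lie beyond *Cep126* and had 0 counts in all 6 libraries. A count of 0 allows up to 3 counts, or 0.685 to 0.841 CPM by library total, counting error alone considered. Of the 22 listed genes of the matching human region, 8 were tested, all of them among the 17 neighboring rows above. Of these 8, 7 differed, 5 of them lower in UN-SCC680. Among all rows 30.4% differed and 15.2% were lower. Among the 256 tested rows at unchanged positions on other chromosomes 154 differed, 48 of them lower.

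Among 241 other genes at checked positions with a mean of at least 10 CPM, those whose pattern over the 6 libraries was most like that of a locus gene were mostly its neighbors. Rows from 3 to 10 Mb of chromosome 9 entered whatever the offset of their ends, and other rows only at unchanged positions. Likeness was measured as the root mean square difference of centered log2 CPM, with 0 for identical patterns. With 3 libraries against 3 it reflects how alike the fold changes are and how widely the libraries of a line spread, so it is no separate result. For *Yap1* the nearest were *Tmem123* (0.024) and *Birc2* (0.029), and for *Tmem123* they were *Yap1* (0.024) and *Aasdhppt* (0.036). For *Birc2* the nearest were *Cwf19l2* (0.018) and *Yap1* (0.029), and for *Dcun1d5* they were *Cwf19l2* (0.033) and *Birc2* (0.039). *Birc3* had no match as near as these. Its nearest were *Met* on chromosome 6, the receptor of hepatocyte growth factor, and *Casp1*, both at 0.132. That distance includes the spread of the UN-SCC680 libraries of *Birc3* itself (49.731, 42.121 and 38.025 CPM). The log2 fold changes were -1.42 for *Met* and -1.63 for *Casp1*, beside -1.52 for *Birc3*. *Met* fell from 4190.4 ± 46.9 to 1561.4 ± 22.3 CPM (SD, n = 3 each; log2 fold change -1.42, adjusted p = 2.56e-37 from edgeR).

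The pathways around the locus genes could hardly be read. None of the 31 listed Hippo pathway genes, of the 21 listed YAP target genes and of the 20 listed neddylation genes lies at a checked position. Of the 37 listed partners of *Birc2* and *Birc3* in cell death and NF-kB signaling, *Ripk2* on chromosome 4 does. *Ripk2*, the kinase below the NOD receptors, had 508, 607 and 500 counts in UN-SCC679 and 668, 774 and 725 in UN-SCC680. It rose from 138 ± 1.57 to 170 ± 10.2 CPM (SD, n = 3 each; log2 fold change 0.30, standard error 0.06, adjusted p = 1.58e-05 from edgeR), opposite to *Birc2* and *Birc3*. A rise was common among such rows: of 256 tested at unchanged positions on other chromosomes, 106 were called higher and 48 lower. The value of *Ripk2* in the fit that moved folds by a median of -0.177 is not given here.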

How the data were processed

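RNA of UN-SCC679 and UN-SCC680 was measured in 3 libraries per line, and each of the 6 columns was matched to its library by line and replicate number. The deposited values are whole-number counts for each Ensembl gene, which the authors had not normalized, beside exon positions and summed exon length. The paper's methods name Trimmomatic, Kallisto and mm10, the submitters' processing notes name featureCounts and mm10, and the table has the layout of featureCounts with mostly other gene positions. Whether counting used strand is not given in the sources used here.

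Symbols matched 31021 of 55359 identifiers, and 527 rows began or ended at most 10 bases from where the RefSeq gene of GRCm38.p6 does. edgeR's quasi-likelihood test (TMM factors 0.9852 to 1.014, filterByExpr, no covariates) was run on all 8987 filtered rows, with Benjamini-Hochberg adjustment and a threshold of 5e-05, and standard errors were derived from the F statistic. The test was first run on simulated data with known changes. Ratios used a pseudocount of 0.5 counts, and log2 CPM a prior count of 2. Libraries of the same line were compared with a chi-square of their counts (1.116 to 1.641 per degree of freedom, above sampling noise), and each was kept as 1 sample. The common coefficient of variation beyond counting noise was 3.12%. Neither value tells separate cultures from repeated preparations of the same RNA. Intervals and floors cover counting error only.

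Members, lists and tests were chosen with earlier results of these data known. Named were the 5 genes, the 3 largest called changes in each direction among neighbors with a symbol and at least 10 CPM in the higher line, listed genes at checked positions, and the 2 nearest patterns per gene. *Cwf19l2*, *Aasdhppt*, *Arhgap42*, *Kbtbd3*, *Alkbh8*, *Msantd4*, *Casp4*, *Mmp10*, *Olfr369-ps1* and *Gm5362* were named after their values were seen. Rows without a symbol match were named by the position of a RefSeq gene within 10 bases, as *Cep126* was. Alternatives were DESeq2, limma-voom, other scalings, filters, thresholds and rows, the replicate block and leaving out each library. Tests ran in edgeR 4.0.16, DESeq2 1.42.0 and limma 3.58.1 under R 4.3.3. Permutation tests used SciPy 1.17.1, and figures matplotlib 3.10.9.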

Additional observations from a re-analysis of the deposited data

How the results depend on the processing

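Each of the 5 genes was lower in UN-SCC680 with an adjusted p under 5e-05 in the 16 settings run, the reported one included, with log2 fold changes of -0.97 to -0.76 for *Yap1*, -1.0 to -0.79 for *Birc2*, -1.69 to -1.42 for *Birc3*, -0.97 to -0.75 for *Tmem123* and -1.01 to -0.80 for *Dcun1d5*. The fit on rows at unchanged positions, to which the rows from 3 to 10 Mb of chromosome 9 were added after seeing the data, gave the lowest value for each.

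Stricter criteria left fewer calls. With an absolute log2 fold change over 1, 1 locus gene (*Birc3*), 7 neighboring rows and 1024 rows in all differed, and with one over 2 there were 0, 1 and 435. An adjusted p under 0.05 gave 5248 rows in place of 2736, and the unchanged positions with the stretch gave 162, from fewer rows. Counting only neighbors whose symbol matched a RefSeq gene that begins or ends within 10 bases of the row, chosen after seeing the data, gave 8 in place of 13. All 8 were lower in UN-SCC680, and none of the 3 called rows that rose was among them. Requiring at least 10 counts in every library gave 2262 rows, 5 locus genes and 12 neighbors, 9 of them lower in UN-SCC680. The replicate block gave 2523 rows, 5 locus genes and 13 neighbors. Same-numbered libraries had correlations of -0.0382, -0.000524 and -0.0218 between their deviations from the line means, so replicate numbers were not taken as pairs.

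Leaving out 1 library gave 2226 to 2611 rows, with 5 locus genes and 13 neighbors in each of the 6 fits. The differences in log2 ratio near 0 changed sign with some libraries left out: *Yap1* over *Tmem123* lay between -0.020 and 0.022 and *Birc2* over *Dcun1d5* between -0.015 and 0.033. Ratios with *Birc3* kept their direction, *Birc2* over *Birc3* between 0.601 and 0.813. Scaling by library size alone gave *Yap1* 195.0 CPM per kilobase in UN-SCC679 in place of 194.5.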
